A study of Mus musculus with 12 samples.

Results

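The 9 genes for receptors of steroid hormones and their closest relatives were followed in the prostate of mice descended from females exposed to chlordecone, an organochlorine insecticide also called kepone. The genes were taken by name as the receptors for oestrogens (Esr1, Esr2 and the membrane receptor Gper1), progesterone (Pgr), glucocorticoids (Nr3c1) and mineralocorticoids (Nr3c2), together with the oestrogen-related orphan receptors Esrra, Esrrb and Esrrg. They are 9 of the 19091 genes in the F1 count table and 9 of the 26023 in the F3 table, and all 9 passed the low-count filter in both generations. Each count below comes from mRNA sequencing of whole prostate, and a level is given as CPM, read counts relative to the library total, scaled with TMM, the library scaling factor of edgeR.

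Control and chlordecone groups were compared in both generations. In the chlordecone groups, pregnant females (F0) received 100 µg/kg/day from embryonic day 6.5 to E15.5. Their sons (F1) developed in those females, and the F3 males came from further crosses of the exposed progeny. Control groups of F1 and F3 carried the label control, and the labels give no vehicle. Strain, age at collection, litter and whether samples were single animals or pools are also not given in the labels, so every p-value measures only the spread between these samples. The analysis used 11 of the 12 labelled samples, namely 2 control and 3 chlordecone libraries in F1 and 3 of each in F3. F1 control 3 was not analysed here.

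Nuclear steroid receptors are transcription factors that sit in chaperone complexes until a hormone binds them. They then attach to short palindromic DNA elements and recruit coregulators. The oestrogen-related receptors share the DNA-binding fold but have no known natural steroid ligand, and they act with PGC-1 coactivators on genes of mitochondrial energy metabolism. In the prostate, oestrogen receptor alpha is known mainly from the stroma and oestrogen receptor beta mainly from the epithelium. Chlordecone is known as a weak oestrogen receptor ligand.

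Total counts ran from 17228539 to 28061760 in F1 and from 71672418 to 114762135 in F3. The labelled tissue was checked against marker genes of the cell types a dissected prostate could hold. Luminal prostate markers such as Pbsn and Tgm4 were present in every library, and their list of 8 genes summed to 52392 to 102197 CPM in F1. In F3 it summed to 88871 to 106811 CPM. In F1 its member Spinkl held 6785 and 5877 CPM in control and 2179, 11892 and 13.8 CPM in chlordecone libraries. The libraries ranked in the same order for Svs1, a seminal vesicle gene given below. In F3, Spinkl was at 0 in 4 of 6 libraries. Spinkl is therefore not read as a luminal marker here, though its counts are in these sums. The 7 seminal vesicle genes, which encode secreted proteins of the neighbouring gland, summed to 118395 and 121009 CPM in the F1 controls and to 186926, 430018 and 528588 CPM in F1 chlordecone libraries 1, 2 and 3. Svs2, Svs5 and Pate4 were higher in all 3, while the median log2 ratio of the 7 genes to the control mean was -0.47, 1.38 and -0.98. Svs1 held 274 and 239 CPM in the controls and 130, 517 and 0.782 CPM in the chlordecone libraries. In F3 the same genes summed to 10.5 to 70.2 CPM in control and 9.91 to 16.4 CPM in chlordecone libraries. Vas deferens and epididymis markers summed to 24.8 and 24.9 CPM in the F1 controls and to 44266, 103 and 13923 CPM in F1 chlordecone libraries 1, 2 and 3. The F1 groups therefore also differed in genes of neighbouring tissues, and the part of this in the receptor values below was not tested. In whole tissue, fewer cells of a type and less RNA per cell cannot be told apart.

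**Figure D1:**
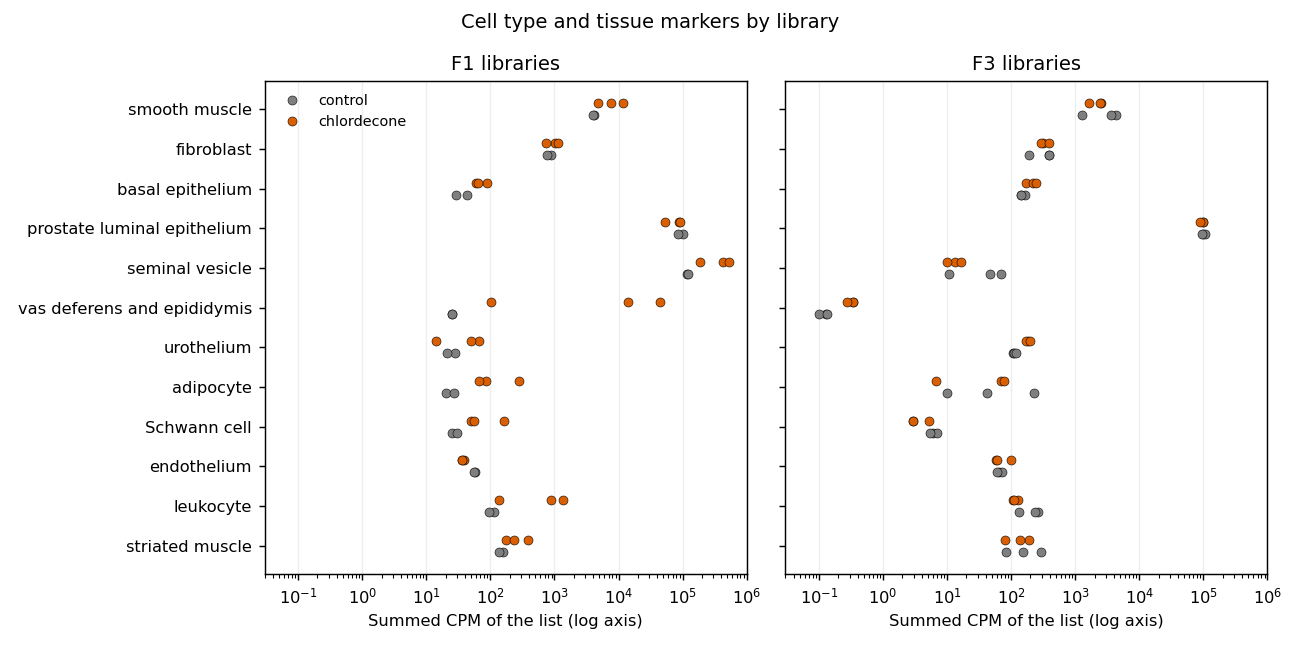
Summed CPM (log axis) of 12 marker lists in the 5 F1 libraries (left) and the 6 F3 libraries (right); each point is 1 library, grey for control and orange for chlordecone. The summed levels of the seminal vesicle and vas deferens lists sat higher in all 3 F1 chlordecone libraries than in the F1 controls, at 186926 to 528588 CPM for the seminal vesicle list (not each of its genes was higher), while the F3 libraries held at most 70.2 CPM of it.

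Promoter sequences are shown for Pgr, Esrrg and Esr1, because of the 9 receptors these 3 had the lowest adjusted p-values for the difference between generations given below, each with a fold change below 0 in F1 and above 0 in F3. The sequences are those of RefSeq (GRCm38.p6), taken from the bases just upstream of a transcription start and outside the annotated exons of the gene. All 3 lie on the + strand: chr9:8899583-8899832 at the Pgr start, chr1:187997577-187997826 at an internal start of Esrrg and chr10:4709908-4710154 at an internal start of Esr1. Capitals mark matches to a searched motif on either strand.
Pgr: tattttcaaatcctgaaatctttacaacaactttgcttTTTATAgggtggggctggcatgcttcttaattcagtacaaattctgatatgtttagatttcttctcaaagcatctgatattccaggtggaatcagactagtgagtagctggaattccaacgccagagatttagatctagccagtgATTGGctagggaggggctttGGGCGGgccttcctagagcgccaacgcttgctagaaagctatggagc
Esrrg: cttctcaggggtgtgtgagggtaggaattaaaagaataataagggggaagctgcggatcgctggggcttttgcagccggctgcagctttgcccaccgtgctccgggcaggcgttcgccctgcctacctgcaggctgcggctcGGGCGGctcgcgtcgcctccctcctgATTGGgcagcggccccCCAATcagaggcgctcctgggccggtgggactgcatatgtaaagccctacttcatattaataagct
Esr1: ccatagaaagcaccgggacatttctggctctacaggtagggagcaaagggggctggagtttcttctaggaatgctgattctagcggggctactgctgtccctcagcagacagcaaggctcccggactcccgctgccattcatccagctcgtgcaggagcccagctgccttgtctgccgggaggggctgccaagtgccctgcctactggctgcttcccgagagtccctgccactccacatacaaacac

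The capitals in the Pgr window are a TATA box with the letters TATAAA, a box named by its letters CCAAT, and a GC box with the letters GGGCGG, each on 1 of the 2 strands. Those in the Esrrg window are a GC box and a pair of CCAAT boxes in opposite orientation. The Esr1 window held no match. Over 13 windows of 250 bases from 8 of the receptor genes, CCAAT was found in 6, GGGCGG in 5, TATAAA in 3, and AGAACA and the AP-1 site TGANTCA in 1 each. Of 32851 RefSeq promoter windows of the same length, 33.8% held CCAAT, 32.7% GGGCGG, 12.4% TATAAA, 16.1% AGAACA and 6.75% TGANTCA. Also searched were the palindrome of the oestrogen response element (GGTCA, then any 3 bases, then its reverse complement), that of the glucocorticoid, mineralocorticoid and progesterone receptors (GNACA, likewise), the oestrogen-related receptor element (TNAAGGTCA) and the motif AGGTCA inside it. None of the 13 windows held any of these, whose shares over all windows were 0.0639%, 0.387%, 1.1% and 14%. A match is a description of letters and not a binding site, and the absence of one says nothing about binding elsewhere.

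To set the receptors in order, each level was divided by the gene's union exon length (GENCODE M21, GRCm38), giving CPM per kilobase. The deposited F1 positions of every receptor gene differed from this annotation, so these lengths may not fit the exons counted in F1. In the F1 control prostate the glucocorticoid receptor gene Nr3c1 was highest at 7.87 CPM per kilobase, followed by Esrra at 5.24, Esr1 at 2.82 and Esrrg at 2.57. Gper1 at 1.10, Pgr at 1.09, Nr3c2 at 0.978, Esr2 at 0.519 and Esrrb at 0.496 CPM per kilobase completed the order. The libraries of Esr1 and Esrrg, of Gper1 and Pgr, and of Esr2 and Esrrb overlapped, so those neighbours in the order did not differ beyond their spread.

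F3 control prostate gave another order of levels. Esrra led at 13.8 CPM per kilobase, ahead of Nr3c1 at 4.50, Esr1 at 4.18, Nr3c2 at 3.26, Esrrg at 2.92 and Gper1 at 2.88. Esr2 at 0.811, Pgr at 0.339 and Esrrb at 0.0455 CPM per kilobase were the lowest. Overlapping neighbours were Nr3c1 with Esr1, Nr3c2 with Esrrg, and Esrrg with Gper1. In the F3 chlordecone group Esrrg moved to 5.23 CPM per kilobase, beside Nr3c1 at 5.35 and Esr1 at 4.94. In the F1 chlordecone group Gper1 was the lowest at 0.164 CPM per kilobase, though its libraries overlapped those of Esrrb at 0.266. The tables were made from separately deposited sets of libraries, so generation and library set cannot be told apart in these levels.

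**Figure D2:**
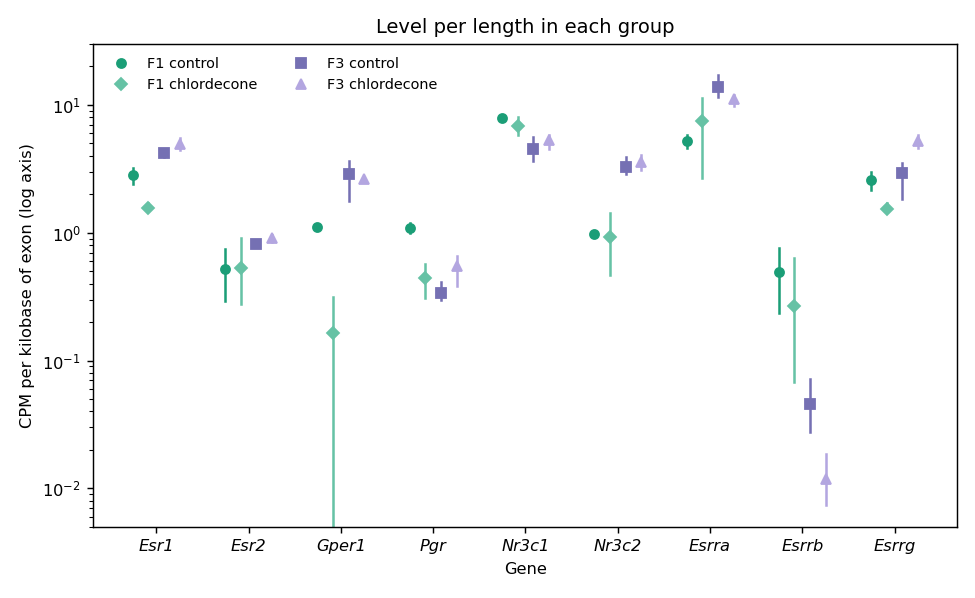
CPM per kilobase of union exon (log axis) for each receptor gene in the 4 groups; symbols are group means and lines run from the lowest to the highest library. Esrra and Nr3c1 sat at the top and Esrrb, Esr2 and Pgr near the bottom, and the line of Gper1 in F1 chlordecone runs off the axis because 1 library had 0 counts.

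The first comparison asked whether direct exposure in the womb was followed by a difference in F1 prostate. No receptor gene passed an adjusted p of 0.05 over all 17804 genes tested with edgeR's quasi-likelihood test with Benjamini-Hochberg adjustment, against 5 genes (0.0281%) called in all. DESeq2's Wald test also called 0 of the 9, with 3.67% of genes called. Of the 9 log2 fold changes 7 were below 0 (48.6% of all genes were), with a median of -0.73 beside 0.02 for all genes tested. At an unadjusted p under 0.05, 3 receptor genes were lower (Esr1, Pgr and Esrrg) and 0 were higher, where 3.6% of all genes were lower and 7.93% higher. A set of 4 (Esr1, Pgr, Esrrg and Gper1) had every chlordecone library below every control, as had 15.1% of all genes tested.

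The second comparison asked the same of F3 males, which descend from the exposed progeny. Again 0 of 9 passed by edgeR's quasi-likelihood test or by DESeq2, where edgeR called 10 of 16766 genes (0.0596%) and DESeq2 0.885%. Of the log2 fold changes 6 were above 0 (48.8% of all genes were), with a median of 0.18 beside -0.01 for all genes tested. Pgr and Esrrg were higher at an unadjusted p under 0.05 (4.97% of all genes were), and Esrrb was lower (5.64%). Esrrg was the 1 member with all chlordecone libraries above all controls (8.34% of genes) and Esrrb the 1 member with all below (8.25%).

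**Figure D3:**
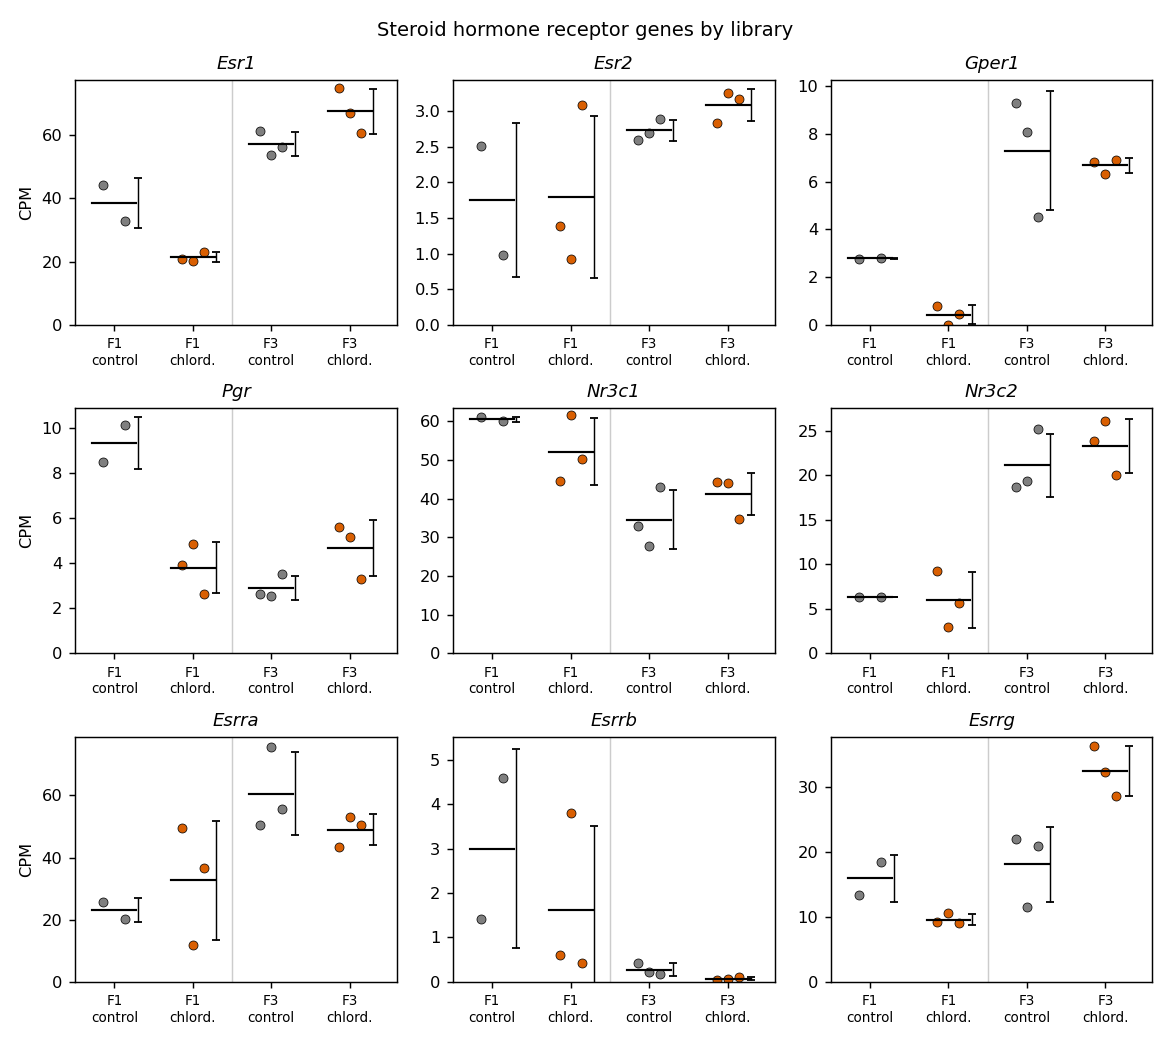
CPM of the 9 receptor genes in each library, from 0 on a linear axis; points are libraries (grey control, orange chlordecone), the horizontal line is the group mean and the bar beside it 1 SD. In F1 the chlordecone libraries of Esr1, Pgr, Gper1 and Esrrg lay below both controls, and in F3 those of Esrrg lay above all 3 controls.

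Esr1 (chr10:4611593-5005614, + strand, GRCm38) encodes oestrogen receptor alpha, the main mediator of oestrogen action. In F1 the controls stood at 44.2 and 32.8 CPM and the others at 20.9, 20.2 and 23.1 CPM. All 3 chlordecone libraries were below both controls. The means were 38.5 ± 8.0 (SD, n = 2) and 21.4 ± 1.55 CPM (SD, n = 3), a log2 fold change of -0.85 (SE 0.25), and edgeR's adjusted p was 0.280. In F3 the controls held 61.4, 53.8 and 56.1 CPM and the chlordecone libraries 74.8, 66.8 and 60.8 CPM. Those groups overlapped, since chlordecone 3 was just below control 1. The F3 log2 fold change was 0.24 (SE 0.12, edgeR adjusted p = 0.509), from 57.1 ± 3.89 to 67.5 ± 7.01 CPM (SD, n = 3 each).

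Esr2 (chr12:76120419-76177259, - strand) encodes oestrogen receptor beta. Its F1 levels were 2.51 and 0.984 CPM in control and 1.39, 0.927 and 3.08 CPM in chlordecone libraries, so each group spanned the other. The F1 log2 fold change was 0.04 with an SE of 0.89, which leaves large changes in either direction undetectable. In F3 the levels were 2.60, 2.70 and 2.89 CPM in control and 2.84, 3.25 and 3.18 CPM in chlordecone. The F3 log2 fold change was 0.18 (SE 0.19, edgeR adjusted p = 0.732), and the groups overlapped.

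Gper1 (chr5:139423151-139427800, + strand) encodes a G protein-coupled receptor of the cell membrane that responds to oestrogens. The F1 controls had 53 and 60 counts (2.78 and 2.81 CPM). Chlordecone libraries 1, 2 and 3 had 20, 0 and 10 counts (0.791, 0 and 0.460 CPM), and the count of 0 allows a level of up to 0.164 CPM. Both controls were above all chlordecone libraries, but the log2 fold change of -2.71 had an SE of 1.29 (edgeR adjusted p = 0.473). In F3 Gper1 stood at 9.31, 8.07 and 4.51 CPM in control and at 6.82, 6.33 and 6.89 CPM in chlordecone. Here the chlordecone libraries lay within the control range, with a log2 fold change of -0.13 (SE 0.26).

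Pgr (chr9:8899833-8968611, + strand) encodes the progesterone receptor and is itself a known target of oestrogen receptor alpha in reproductive tissue. It held 8.48 and 10.1 CPM in the F1 controls against 3.92, 4.85 and 2.62 CPM in the F1 chlordecone libraries. The groups did not overlap, and the means were 9.30 ± 1.16 (SD, n = 2) and 3.80 ± 1.12 CPM (SD, n = 3). The log2 fold change was -1.29 (SE 0.44, edgeR adjusted p = 0.328). In F3 the controls held 2.62, 2.56 and 3.51 CPM and the chlordecone libraries 5.57, 5.16 and 3.27 CPM. Chlordecone 1 and 2 were above every control, while chlordecone 3 was within the control range. The F3 means were 2.90 ± 0.532 and 4.67 ± 1.23 CPM (SD, n = 3 each), a log2 fold change of 0.69 (SE 0.26, edgeR adjusted p = 0.450).

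Nr3c1 (chr18:39410545-39519421, - strand) encodes the glucocorticoid receptor. Its F1 levels were 61.0 and 60.0 CPM in control and 44.7, 61.6 and 50.2 CPM in chlordecone, where chlordecone 2 exceeded both controls. The F1 log2 fold change was -0.21 (SE 0.25, edgeR adjusted p = 0.804). In F3 the levels were 32.9, 27.8 and 43.0 CPM in control and 44.4, 44.0 and 34.8 CPM in chlordecone, and the groups overlapped. The F3 log2 fold change was 0.25 (SE 0.18, edgeR adjusted p = 0.620).

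Nr3c2 (chr8:76899442-77245012, + strand) encodes the mineralocorticoid receptor, which binds aldosterone and also glucocorticoids. A stretch of 247 exonic bases is shared with Gm10649 on the other strand, so part of its reads is uncertain, because the strand setting of the counting is not given in the sources used here. In F1 it stood at 6.34 and 6.32 CPM in control and at 9.22, 3.00 and 5.66 CPM in chlordecone libraries, which lay on both sides of the controls (log2 fold change -0.08, SE 0.53). In F3 it stood at 18.7, 19.4 and 25.2 CPM in control and at 23.8, 26.1 and 20.0 CPM in chlordecone (log2 fold change 0.14, SE 0.16). Neither generation separated the groups.

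Among the orphan receptors, Esrra (chr19:6910977-6921813, - strand) encodes the family member best known as a regulator of mitochondrial genes. It shares 73 exonic bases with Trmt112 on the other strand and 91 with Mir6990, so its reads are uncertain to that extent. In F1 it held 25.7 and 20.3 CPM in control and 49.3, 11.8 and 36.6 CPM in chlordecone libraries. Chlordecone 1 and 3 were above both controls and chlordecone 2 was below both (log2 fold change 0.50, SE 0.52). In F3 it held 50.4, 75.7 and 55.5 CPM in control and 43.3, 52.9 and 50.5 CPM in chlordecone, with overlap (log2 fold change -0.31, SE 0.17, edgeR adjusted p = 0.535).

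Esrrb (chr12:86361117-86521628, + strand), a receptor known from embryonic stem cells, was the lowest of the 9 per length in F3. The F1 controls held 1.41 and 4.59 CPM and the chlordecone libraries 0.594, 3.82 and 0.414 CPM, with overlap (log2 fold change -0.91, SE 1.08). In F3 the controls had 41, 16 and 20 counts (0.434, 0.226 and 0.166 CPM) and the chlordecone libraries 5, 5 and 12 counts (0.0449, 0.0581 and 0.113 CPM). All 3 chlordecone libraries were below all controls, with a log2 fold change of -1.91 (SE 0.58, edgeR adjusted p = 0.394).

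Esrrg (chr1:187608791-188214885, + strand) encodes the third oestrogen-related receptor, known from tissues with a high oxidative demand. Its F1 levels were 13.4 and 18.5 CPM in control and 9.14, 10.6 and 9.02 CPM in chlordecone. The chlordecone libraries were tightly grouped below both controls, with means of 16 ± 3.6 (SD, n = 2) and 9.60 ± 0.896 CPM (SD, n = 3). The F1 log2 fold change was -0.73 (SE 0.31, edgeR adjusted p = 0.416). In F3 the levels were 22.0, 11.5 and 20.9 CPM in control and 36.4, 32.4 and 28.6 CPM in chlordecone. Here every chlordecone library was above every control, from 18.1 ± 5.79 to 32.5 ± 3.90 CPM (SD, n = 3 each). The F3 log2 fold change was 0.84 (SE 0.24, edgeR adjusted p = 0.389).

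**Figure D4:**
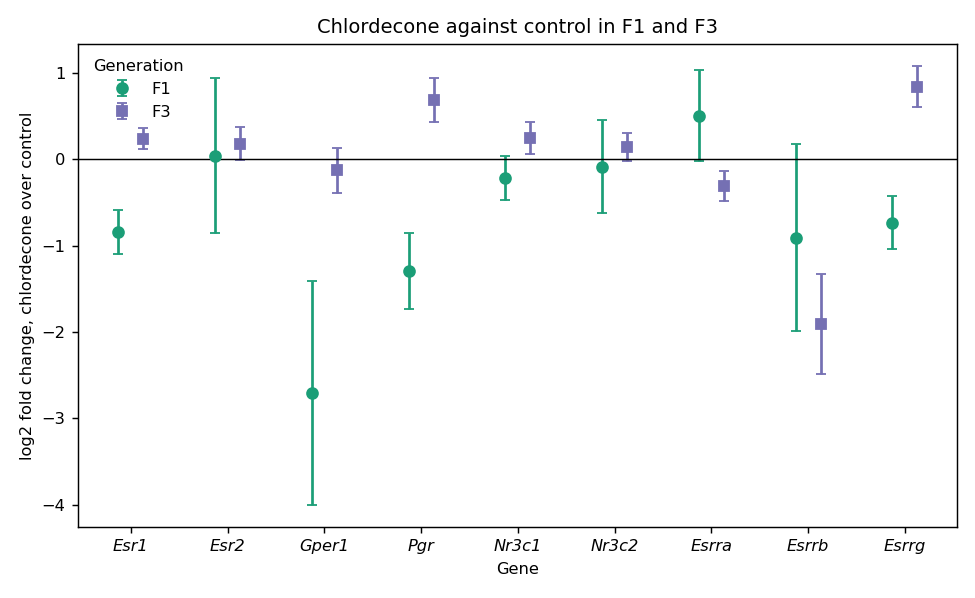
Log2 fold change of chlordecone over control for each receptor gene in F1 (circles) and F3 (squares), with bars of 1 standard error. Esr1, Pgr and Esrrg lay below 0 in F1 and above 0 in F3, by 1.15 to 2.05 between the generations, and no single fold change passed an adjusted p of 0.05.

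The third comparison asked whether the difference between chlordecone and control itself differed between F1 and F3, in 1 fit of all 11 libraries. For 5 of the 9 receptors (Esr1, Pgr, Nr3c1, Nr3c2 and Esrrg) the fold change was below 0 in F1 and above 0 in F3, as for 23.6% of the 14079 genes tested in both. The F3 minus F1 difference in log2 fold change was 1.15 (SE 0.26) for Esr1, with an edgeR adjusted p of 0.0606. For Esrrg it was 1.64 (SE 0.38, edgeR adjusted p = 0.0611). For Pgr it was 2.05 (SE 0.50, edgeR adjusted p = 0.0702). Gper1 followed with 2.62 (SE 0.87, edgeR adjusted p = 0.146). The other 5 had adjusted p-values from 0.410 for Nr3c1 to 0.914 for Esr2.

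Thus 0 of 9 passed in this comparison, where edgeR called 122 of 16980 genes (0.718%). At an unadjusted p under 0.05 the count was 4 of 9, all with a higher value in F3, where 7.04% of all genes were so. With DESeq2's Wald test Esr1, Pgr, Gper1 and Esrrg passed, with adjusted p from 0.000695 to 0.0139, among 6.76% of genes called. The call therefore depended on the tool. Over all alternatives the adjusted p ran from 0.000695 to 0.174 for Esr1, from 0.00429 to 0.174 for Esrrg and from 0.00532 to 0.243 for Pgr, with the direction kept in each.

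The F1 calls changed most without 1 library. Without F1 chlordecone 2, Esr1 (log2 fold change -0.81, edgeR adjusted p = 0.0425) and Pgr (-1.51, 0.0410) were called lower and Esrra (0.90, 0.0371) was called higher. In that fit 15% of all genes were called in place of 0.0281%, 9.61% higher and 5.36% lower. In the comparison of the generations without that library, Esr1, Pgr, Gper1, Esrrg and Esrra passed, among 13.8% of genes called. In the F1 chlordecone 2 library the highest gene was Svs4, a seminal vesicle protein, with 29.8% of its counts, and Esrra was lowest there. The vas deferens markers were at 103 CPM in it, against 44266 and 13923 CPM in chlordecone 1 and 3. The part of these tissue markers in the receptor values was not tested.

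Markers of the cells that could carry the receptors were compared beside them. In F1 the 9 smooth muscle genes summed to 4013 to 4098 CPM in control and 4715 to 11915 CPM in chlordecone libraries, higher without overlap. The 8 fibroblast genes overlapped as a sum, at 756 to 890 and 727 to 1130 CPM. Most of it was Dcn, at 710 and 575 CPM in control and 744, 524 and 817 CPM in chlordecone libraries. Col1a1, Col1a2 and Dpt were higher without overlap, and the other fibroblast genes overlapped. Of the 8 fibroblast fold changes, 7 were above 0 (51.4% of all genes were). The 6 endothelial genes were lower as a sum, at 56.0 to 58.0 against 35.5 to 39.1 CPM. Higher without overlap in F1 chlordecone libraries were also the sums of basal epithelial (28.9 to 42.4 against 59.91 to 90.04 CPM), Schwann cell (24.9 to 30.6 against 50.5 to 163 CPM) and adipocyte genes (20.0 to 26.8 against 66.03 to 280.9 CPM). The same held in F1 for leukocyte (95.5 to 116 against 138 to 1343 CPM) and striated muscle genes (139 to 159.5 against 176 to 380 CPM), while urothelial genes overlapped (20.9 to 28.4 against 14.2 to 66.8 CPM). In F3 smooth muscle (1271 to 4259 against 1615 to 2512 CPM), fibroblast (191 to 395 against 289 to 388 CPM) and endothelial genes overlapped. Basal epithelial genes summed to 140 to 166 CPM in F3 control and 169 to 240 CPM in F3 chlordecone libraries, and urothelial genes to 107 to 121 and 172 to 198 CPM. Of 3 urothelial genes tested in F3, edgeR's quasi-likelihood test called 1 higher (adjusted p = 0.0102), with 0.0596% of all genes called. Leukocyte genes (134 to 264 against 107 to 126 CPM) and Schwann cell genes (5.37 to 7.06 against 2.94 to 5.13 CPM) were lower in F3 chlordecone libraries, and adipocyte genes overlapped. All genes of the smooth muscle, fibroblast, endothelial, basal and urothelial lists had reads in all libraries. The part of these cell types in the receptor values was not tested.

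The genes around the receptors were read from 7 lists, and edgeR's quasi-likelihood test called 0 of their members in either generation. The lists share members: Fkbp5 is in the chaperone and glucocorticoid-responsive lists, and Sgk1 and Tsc22d3 are in both corticoid lists. Hsd11b2 is in the aldosterone-responsive and ligand supply lists. Counts from different lists are therefore not separate results. The 13 genes of the chaperone list encode chaperones and partner proteins of the complexes that hold unliganded receptors. In F1, 11 of 13 log2 fold changes were above 0 (51.4% of all genes were), with a median of 0.60, and 3 were higher at an unadjusted p under 0.05 (7.93% of all genes were). Hspa8, the constitutive HSP70, stood at 101 ± 3.32 CPM in control and 355 ± 210 CPM in chlordecone (log2 fold change 1.82, SE 0.51), while the HSP90 genes Hsp90aa1 and Hsp90ab1 gave 0.31 (SE 0.35) and 0.54 (SE 0.34). DESeq2 called Hspa8 and Fkbp5 higher, among 2.81% of all genes. In F3, 5 of 13 were above 0 with a median of -0.04, and DESeq2 called 0.

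The 21 coregulators had medians of 0.12 in F1 (11 above 0) and 0.24 in F3 (15 above 0). The coactivator Ncoa1 stood at 153 ± 4.59 CPM in F1 control and 92.8 ± 29.3 CPM in F1 chlordecone libraries, a log2 fold change of -0.72 (SE 0.31). Ncor1, a corepressor of nuclear receptors, gave -0.34 (SE 0.32) in F1 and 0.32 (SE 0.23) in F3. DESeq2 called 0 of these genes in either generation.

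Among 10 oestrogen-responsive genes tested in F1, 5 were higher and 1 was lower at an unadjusted p under 0.05, where 7.93% and 3.6% of all genes were. Greb1, a growth gene induced by oestrogen receptor alpha, held 102 and 85.6 CPM in control and 30.6, 54.5 and 37.2 CPM in chlordecone libraries, below both controls (log2 fold change -1.20, SE 0.30). Ccnd1, the cell cycle gene for cyclin D1, held 25.5 and 29.4 CPM in control and 131, 67.8 and 143 CPM in chlordecone libraries, above both controls (2.06, SE 0.38). So the members of this list did not share a direction. DESeq2 called Ltf, Wnt4 and Ccnd1 higher and Greb1 lower in F1 (2.81% and 0.854% of all genes), and Ccnd1 lower in F3 (0.477%).

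In F3, Ccnd1 held 47.7, 54.2 and 53.9 CPM in control and 37.3, 37.1 and 32.6 CPM in chlordecone libraries, below all controls (log2 fold change -0.54, SE 0.12, edgeR adjusted p = 0.310). Ccnd1 was the 1 gene of the 7 lists for which the difference between generations passed, at -2.52 (SE 0.35, edgeR adjusted p = 0.00768). Greb1 in F3 gave 0.41 (SE 0.19), and its difference between generations was 1.67 (SE 0.37, edgeR adjusted p = 0.0602). Of 8 oestrogen-responsive genes tested in F3, 5 were above 0, with a median of 0.12.

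The glucocorticoid-responsive list had 8 of 14 genes above 0 in F1 (median 0.13) and 7 of 14 in F3 (median 0.04). Glul, which encodes glutamine synthetase, stood at 115 ± 3.48 CPM in F1 control and 482 ± 341 CPM in F1 chlordecone libraries (log2 fold change 2.07, SE 0.56). In F3 the metallothionein genes Mt1 and Mt2 gave -0.56 (SE 0.23) and -0.49 (SE 0.17), with every chlordecone library below every control. DESeq2 called Glul and Fkbp5, the latter already counted with the chaperones, higher in F1, among 2.81% of all genes, and 0 in F3. Of the aldosterone-responsive genes, 8 of 9 were above 0 in F1 (median 1.01) and 7 of 7 in F3 (median 0.30). Sgk1, a kinase induced by both corticoids, gave 1.07 (SE 0.41) in F1 and 0.40 (SE 0.17) in F3. DESeq2 called 2 of the list higher in F1, Fxyd4 among them, against the same 2.81%, and 0 in F3.

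For the mitochondrial genes that oestrogen-related receptors regulate, 11 of 12 log2 fold changes were above 0 in F1 (median 0.44) and 4 of 12 in F3 (median -0.16). Atp5b, a subunit of ATP synthase, gave 0.46 (SE 0.47) in F1 and -0.12 (SE 0.13) in F3. Of the 12, 3 were lower in F3 at an unadjusted p under 0.05, where 5.64% of genes were, and DESeq2 called Cox5b lower in F3 (0.477% of all genes) and 0 of the list in F1. Of 11 enzymes and carriers of ligand supply, 7 were matched in the F1 table and 5 of these were tested, and 9 were matched in F3 and 3 tested. The oestrogen sulfotransferase gene Sult1e1 was the highest of them, with log2 fold changes of 0.63 (SE 0.42) in F1 and -0.33 (SE 0.33) in F3. DESeq2 called 0 of them in either generation. Without F1 chlordecone 2, edgeR called 7 of 13 chaperones higher, 5 oestrogen-responsive genes higher and 1 lower, 4 of 12 mitochondrial genes higher, 3 glucocorticoid-responsive and 3 aldosterone-responsive genes higher, and 2 coregulators higher and 1 lower. Those counts stand against 9.61% of all genes higher and 5.36% lower.

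**Figure D5:**
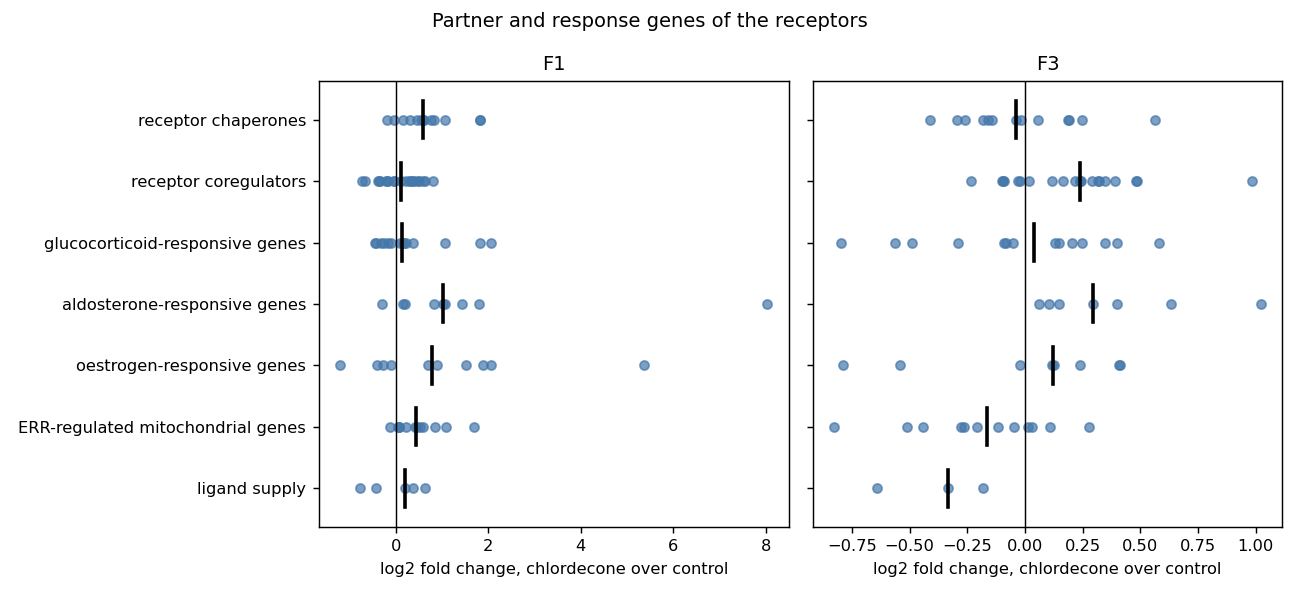
Log2 fold change of chlordecone over control for every tested gene of the 7 lists, in F1 (left) and F3 (right), on axes of different range; points are genes and the black bar is the list's median. The F1 medians ran from 0.12 to 1.01 and the F3 medians from -0.33 to 0.30, and no gene passed edgeR's adjusted threshold in either generation.

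The genes whose levels followed each receptor most closely were read from Pearson's r of log2 CPM over the 11 libraries, centred within each generation, among 11164 genes. These libraries share depth, tissue makeup and treatment, so r is a description. Esr1 was closest to Tmem136 (r = 0.981) and to Stat5a (r = 0.966), a transcription factor of cytokine signalling. Among the closest to Pgr was Sik2 (0.951), and Esrrg was closest to Ept1 (0.975) and G2e3 (0.967). Stat5a stood at 85.8 and 61.2 CPM in F1 control and chlordecone and at 313.5 and 355.9 CPM in F3. For Nr3c1 the closest were Mblac2 (0.954) and Zfp597 (0.946), for Nr3c2 Tax1bp1 (0.960) and Zbtb14 (0.950), and for Esrra Paip2 (0.985) and Tomm40l (0.981). Gper1 was closest to Fh1 (0.979) and Asnsd1 (0.977), whose r within F3 alone was 0.611 and 0.518. For Esr2, Nfyb (0.938) and Prpf38a (0.929) had r of 0.169 and -0.05 within F3, so their likeness came from the F1 libraries. Esrrb was too low in F3 for this measure.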

How the data were processed

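Prostate mRNA was sequenced in 4 groups (control and chlordecone, F1 and F3). For each generation, raw counts per gene were deposited as whole numbers by the authors. The submitters' processing notes name HTSeq 0.6.1 and, for alignment to mm10, TopHat2 2.0.14 with Bowtie2 2.1.0, besides DESeq2 1.6.3. Neither the annotation release nor the strand setting was given in the sources used here. The lowest total count of a gene was 20 in the F1 table and 1 in the F3 table. Columns headed K were read as chlordecone (kepone) and C as control.

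Counts were tested with edgeR 4.0.16 (R 4.3.3, limma 3.58.1): TMM scaling, filterByExpr (minimum count 10, minimum total 15), quasi-likelihood F test, Benjamini-Hochberg adjustment over all genes tested, threshold 0.05. F1 and F3 were fitted apart, and 1 fit of both over genes in both tables tested the difference in log2 fold change. DESeq2 1.42.0, other filters, other scaling, a replicate block and leaving out each library were alternatives. Limits for a count of 0 rest on 3 counts and cover counting error only. Gene positions came from GENCODE M21 by Ensembl identifier. Start and end were the same in 2.11% of matched F1 genes and 78.9% of F3 genes, so the deposited positions were not used.

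All 9 receptors are named, of each list every called gene and then the highest by mean CPM until 3, and for likeness the 2 genes of highest r with a mean of at least 1 CPM, unnamed gene models left out. Genes beyond these (members called by DESeq2 or without F1 chlordecone 2, Mt2, Cox5b and Fkbp5 among them) were named after their values were seen. Some genes that the rule names are not reported here. The receptors and all lists were chosen with earlier results of these data known.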

Additional observations from a re-analysis of the deposited data

Results flagged for a closer look

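Esrrg was singled out because its 3 F1 chlordecone libraries all lay below the F1 controls while its 3 F3 chlordecone libraries all lay above the F3 controls. Of all genes tested, 15.1% were lower without overlap in F1 and 8.34% higher without overlap in F3. The share of genes that met both is not given here, so how unusual the pattern is cannot be said. The difference in log2 fold change, F3 minus F1, was 1.64 (SE 0.38, edgeR adjusted p = 0.0611 over 16980 genes), which misses the threshold.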

How the results depend on the processing

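Of 341 values recomputed for the 9 receptors under other settings, 316 kept their direction and their side of the threshold, 16 came to pass it and 9 changed sign, none of the latter being called. The sign changes were Esr2 in F1 with the replicate block (-0.48), without F1 control 2 (-0.47) and without F1 chlordecone 3 (-0.59), Esrrb in F1 without control 2 (0.18), Nr3c2 in F1 without chlordecone 2 (0.23) and Gper1 in F3 without control 1 (0.093). Leaving out single libraries gave ranges of -0.59 to 0.88 for Esr2, -2.57 to 0.18 for Esrrb and -0.55 to 0.23 for Nr3c2 in F1, and of -0.38 to 0.093 for Gper1 in F3. In the difference between generations they were Esr2 without F1 control 1 (-0.59) and without F1 chlordecone 2 (-0.05), and Esrrb without F1 chlordecone 2 (0.79), with ranges of -0.59 to 0.84 for Esr2 and -2.03 to 0.79 for Esrrb. In 1 fit of all libraries Esr1 and Gper1 passed in F1 (edgeR adjusted p = 0.0250 and 0.0384). Esr1 passed in the difference between generations with DESeq2 size factors (0.0486) and among genes of at least 1 CPM (0.0441).

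The number of genes called in F1, 5 with edgeR, was 21 with no filter, 700 with DESeq2, 930 in 1 fit of all libraries, and 0 to 2604 when single libraries were left out (0 without control 1, without control 2 or without chlordecone 3, and 2604 without chlordecone 2). At an unadjusted p under 0.05 those 3 counts of 0 stood at 1066, 1059 and 1240 genes. In F3, 10 became 38 with no filter, 230 with DESeq2, 2 in 1 fit, and 7 to 41 without single libraries (41 without control 1 and 17 without control 2). For the difference between generations, 122 became 192 among genes of at least 1 CPM, 1150 with DESeq2, and 27 to 2320 without single libraries. The counts fell to 54 and 41 without F1 control 1 and 2, to 55 and 70 without F3 control 2 and 3, and to 27, 27 and 36 without F3 chlordecone 1, 2 and 3. The cause was not tested.

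Deviations of same-numbered samples from their group means had r of 0.131, 0.00179 and 0.00191 in F3 and 0.0483 and 0.0583 in F1. Samples with different numbers had r from -0.220 to 0.206 in F3. Centring groups of 2 or 3 libraries ties these values to one another, so they cannot decide whether the numbers pair the samples. With the replicate block, 322 genes were called in F1, 8 in F3 and 49 in the difference between generations. F1 had 2 controls, and Gper1, Esr2 and Esrrb had few counts there. Their F1 log2 fold changes had SEs of 1.29, 0.89 and 1.08, and changes of that size were not detectable.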
